A study of Mus musculus with 32 samples.

Results

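The genes described here are 10 chemokines and chemokine receptors that guide lymphocytes into and within lymphoid tissue or draw leukocytes into inflamed tissue. They comprise the 4 receptors Cxcr4, Ccr7, Ccr6 and Cxcr5 and the 6 ligands Cxcl12, Cxcl13, Ccl19, Ccl5, Ccl2 and Cxcl16, out of 19938 genes measured. They were picked by name, with earlier results of these data known. Among the probe sets with a single gene symbol, the brightest on average across all 32 arrays stood for each gene. The material was BAL17, a B cell lymphoma line of BALB/c mice, and BAL17VII, a line derived from it, profiled as a model of lymphoma of the central nervous system. The 6 groups were cultured BAL17VII cells (6 arrays), cultured BAL17 cells (6 arrays), brains of BALB/c wt mice 21 days after 500000 BAL17VII cells were placed in the brain (5 arrays), brains 28 days after the same number of BAL17 cells (5 arrays), brains 21 days after BAL17 cells (5 arrays), and brains of mice injected with PBS and taken at day 28 (5 arrays). There was no PBS group at day 21, so each day 21 comparison with PBS also spans a difference of days. Each line is a single line, the labels do not say whether its arrays came from separate cultures, and p-values for the lines may therefore measure technical spread only. Brain samples are labelled whole brain, so their RNA mixes tumour cells with every cell type of the host.

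Chemokines are small secreted proteins that act through G protein coupled receptors and direct the movement of cells. CXCL12 acts on CXCR4, CXCL13 on CXCR5, and CCL19 on CCR7. These pairs position B cells in bone marrow, follicles and the T cell zone of lymph nodes. CCR6 is the receptor of CCL20. CCL2 and CCL5 recruit monocytes and T cells, and CXCL16 is a membrane-bound ligand that can be shed. In the brain, CXCL12 is made by endothelial cells and other resident cells, and in human central nervous system lymphoma CXCL13 is a known product of the tumour tissue.

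Promoters of 5 of the 10 genes (Cxcl12, Cxcr4, Cxcl13, Ccl19 and Ccr6) were found in the RefSeq table of build GRCm38.p6. The 250 bases before the start site are shown for Cxcr4 and Cxcl13, the receptor and the ligand with the largest differences between BAL17 brains at day 21 and PBS brains, and for Ccr6. The Cxcr4 promoter lies on the minus strand at chr1:128592300-128592549, the Cxcl13 promoter on the plus strand at chr5:95956689-95956938, and the second of the Ccr6 start sites has its promoter on the plus strand at chr17:8242276-8242525. Capitals mark matches to TATAAA in Cxcr4 and Cxcl13 and to the NF-kB frame (GGG, any 2 bases, TT, any base, then CC) in Ccr6, and sequences run 5′ to 3′.
Cxcr4 promoter: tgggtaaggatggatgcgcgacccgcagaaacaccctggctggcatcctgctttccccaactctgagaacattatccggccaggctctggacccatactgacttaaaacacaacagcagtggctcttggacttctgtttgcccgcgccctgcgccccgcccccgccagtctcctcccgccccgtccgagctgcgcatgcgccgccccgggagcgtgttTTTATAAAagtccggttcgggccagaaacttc
Cxcl13 promoter: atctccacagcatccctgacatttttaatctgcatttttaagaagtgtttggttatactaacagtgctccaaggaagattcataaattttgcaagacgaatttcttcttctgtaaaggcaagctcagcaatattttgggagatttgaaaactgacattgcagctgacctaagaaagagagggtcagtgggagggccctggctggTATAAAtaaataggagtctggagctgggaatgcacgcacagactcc
Ccr6 promoter, second start: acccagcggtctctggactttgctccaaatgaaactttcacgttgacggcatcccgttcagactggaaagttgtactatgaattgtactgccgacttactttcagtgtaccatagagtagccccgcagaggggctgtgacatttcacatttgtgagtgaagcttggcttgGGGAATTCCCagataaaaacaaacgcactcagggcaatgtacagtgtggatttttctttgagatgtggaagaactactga
Both strands were searched. In Cxcr4 a forward TATAAA starts at position -30 and a reverse match at -32, which overlap. In Cxcl13 the match starts at -46. The Ccr6 match starts at -80 and is its own reverse complement. Of 32851 promoters in the table, 12.4% held TATAAA and 4.1% held the NF-kB frame, so these matches describe letters and not sites. Ccl19 also held 1 match to the NF-kB frame and 1 to the core of interferon response elements (GAAA, any 2 bases, GAAA), which 3.0% of promoters held. The promoters of Cxcl12 and of the first Ccr6 start site held no match to any of these patterns.

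Arrays of 1 group correlated with each other between 0.9739 and 0.9892 over all genes. Intensities are RMA values put on the log2 scale. RMA gives no detection call, and differences can be compressed for genes below the median of an array. Cxcr5, Ccl2 and Cxcl16 lay below that median on every array, and Ccr6 did so in all brains. B cell and neuron markers were in place in the samples labelled as such. The mean log2 intensity over 11 B cell genes was 8.70 in BAL17VII cells and 8.61 in BAL17 cells, and that over 8 neuron genes was 10.78 to 11.21 across the brain groups. The B cell mean per brain was 5.81 to 7.32 in BAL17VII brains, 7.38 to 7.69 in BAL17 brains at day 28, 7.06 to 7.62 in BAL17 brains at day 21 and 5.71 to 5.96 in PBS brains. Its lowest implanted brain, at 5.81, was BAL17VII replicate 1, which fell within the PBS range, and calls and counts for BAL17VII brains that its removal changes are given both ways. Fewer cells of a type and less RNA per cell cannot be told apart in these bulk samples.

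Cxcr4, the receptor of CXCL12, was high in both lines and higher in every implanted group than in PBS brains. Its log2 intensity was 9.93, 10.01 and 10.13 (lowest, median and highest) in BAL17VII cells and 9.83, 9.93 and 10.02 in BAL17 cells. It was 6.92, 9.10, 8.52, 8.52 and 8.79 in BAL17VII brains, 8.97, 9.28, 8.99, 9.07 and 9.20 in BAL17 brains at day 28, 9.83, 9.70, 9.77, 9.50 and 10.13 in BAL17 brains at day 21, and 6.69, 6.69, 7.0, 7.33 and 7.01 in PBS brains. All 10 BAL17 brains lay above every PBS brain, and BAL17VII replicate 1 was the only implanted brain inside the PBS range. The difference from PBS brains, as log2 fold change ± SE, was 1.43 ± 0.25 in BAL17VII brains (adjusted p = 0.0019), 2.16 ± 0.25 in BAL17 brains at day 28 (adjusted p = 2.46e-06) and 2.84 ± 0.25 in BAL17 brains at day 21 (adjusted p = 4.48e-08). In linear terms these are 2.69-fold, 4.46-fold and 7.18-fold. Without BAL17VII replicate 1 the first difference was 1.79 (adjusted p = 4.76e-09). The SE of 0.25 is pooled over all brain groups, whose spread was unequal. The SD was 0.85 in BAL17VII brains, 0.14 in BAL17 brains at day 28, 0.23 at day 21 and 0.27 in PBS brains. In the order of group means, BAL17VII cells, BAL17 cells and BAL17 brains at day 21 overlapped with their neighbours, while BAL17 brains at day 21 and at day 28 did not.

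Ccr7, which brings lymphocytes to the T cell zone, was higher in BAL17 brains than in PBS brains. Its log2 intensity was 7.90, 8.21 and 8.40 (lowest, median and highest) in BAL17VII cells and 7.55, 7.87 and 7.95 in BAL17 cells. Brain values were 6.44, 7.25, 7.16, 6.92 and 6.96 for BAL17VII, 7.51, 7.35, 7.42, 7.33 and 7.21 for BAL17 at day 28, 7.66, 7.57, 7.17, 7.61 and 7.50 for BAL17 at day 21, and 6.29, 6.05, 6.87, 6.71 and 6.80 for PBS. The BAL17 brains of both days lay above all PBS brains, whereas BAL17VII brains overlapped with them. Against PBS, Ccr7 rose by 0.82 ± 0.15 in BAL17 brains at day 28 (adjusted p = 0.000519) and by 0.96 ± 0.15 at day 21 (adjusted p = 4.34e-05). In BAL17VII brains its difference of 0.41 ± 0.15 missed the threshold (adjusted p = 0.158) and passed it without BAL17VII replicate 1 (0.53, adjusted p = 0.0329). That was the only 1 of 10 leave-one-out fits in which it passed, and without replicate 2 the adjusted p was 0.41. It passed in none of 9 other settings.

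Ccr6, which responds to CCL20 and marks mature B cells, was 7.05, 7.12 and 7.44 (lowest, median and highest log2 intensity) in BAL17VII cells and 7.25, 7.51 and 7.89 in BAL17 cells. Brain values were 5.94, 5.94, 6.13, 5.98 and 5.74 for BAL17VII, 5.87, 6.13, 6.27, 6.31 and 6.23 for BAL17 at day 28, 6.47, 6.03, 6.06, 6.08 and 6.30 for BAL17 at day 21, and 5.64, 5.62, 5.41, 5.67 and 5.78 for PBS. Every line array was above every brain, and BAL17 brains of both days did not overlap with PBS brains. Ccr6 rose against PBS by 0.54 ± 0.10 in BAL17 brains at day 28 (adjusted p = 0.000751) and by 0.56 ± 0.10 at day 21 (adjusted p = 0.000211). The difference in BAL17VII brains was 0.32 ± 0.10 (adjusted p = 0.097). Its ligand gene Ccl20, looked up as a partner and not for its values, did not pass in any comparison and differed by 0.21 ± 0.10 between BAL17 brains at day 21 and PBS brains.

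Cxcr5, the follicle homing receptor, lay below the array median on every array. Its log2 intensity was 4.24, 4.71 and 4.89 (lowest, median and highest) in BAL17VII cells and 4.57, 4.86 and 5.16 in BAL17 cells. In brains it ran from 4.04 to 4.28 for BAL17VII, from 4.27 to 4.70 for BAL17 at day 28, from 3.89 to 4.75 for BAL17 at day 21 and from 4.11 to 4.44 for PBS. All neighbouring groups overlapped, and no comparison passed the threshold. For BAL17 brains at day 21 against PBS the difference was 0.09 (95% interval -0.15 to 0.34).

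**Figure D1:**
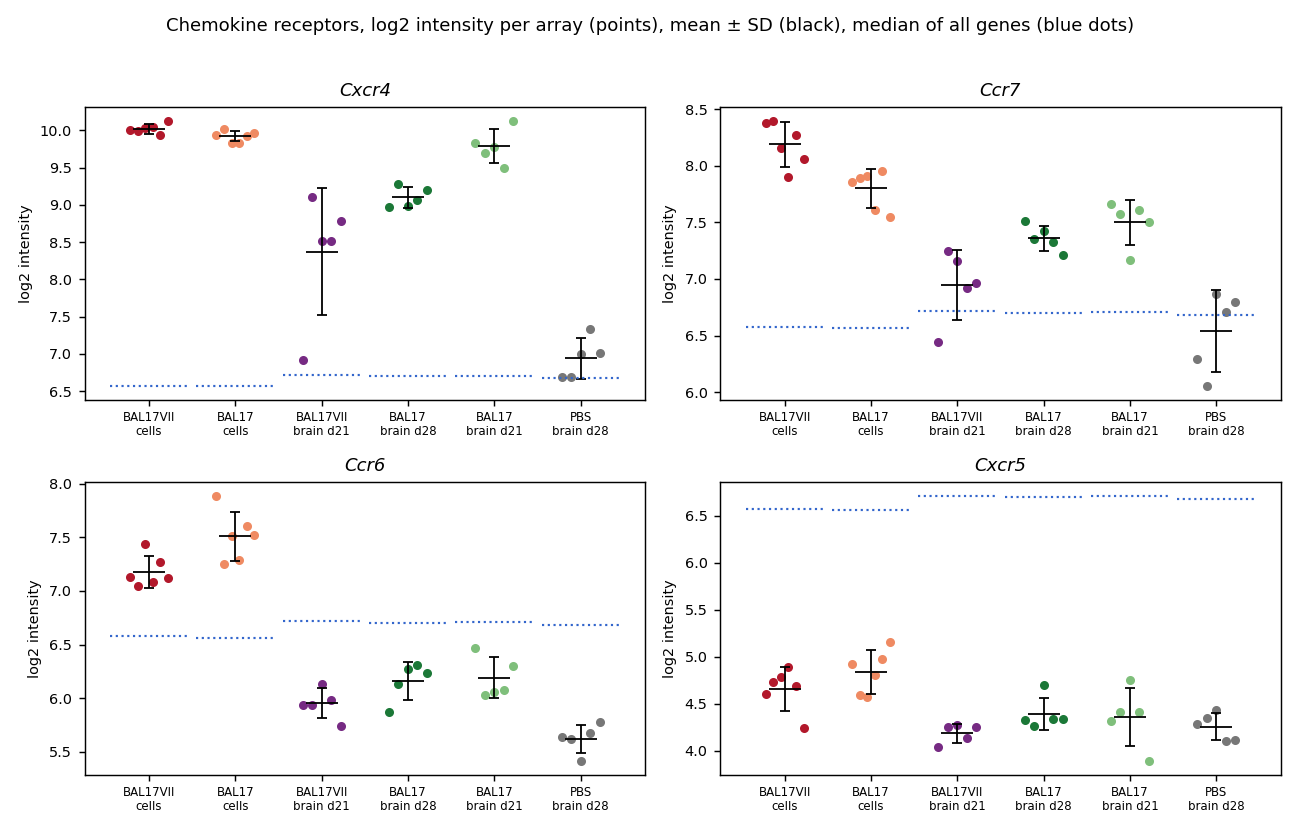
Log2 intensity of the receptor genes (vertical axis) in the 6 groups (horizontal axis). Points are arrays, black bars are the mean ± SD, and blue dots mark the median of all genes on the arrays of a group. Cxcr4 reached 9.50 to 10.13 in BAL17 brains at day 21, and the low BAL17VII brain stands at 6.92.

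Cxcl12 was lower in BAL17 brains at day 21 than in PBS brains. Its log2 intensity was 5.44, 6.02 and 6.48 (lowest, median and highest) in BAL17VII cells and 5.18, 5.93 and 6.29 in BAL17 cells, below the array median on all 12 line arrays. Brain values were 7.55, 7.17, 7.32, 7.42 and 7.51 for BAL17VII, 7.87, 7.26, 7.44, 7.05 and 7.10 for BAL17 at day 28, 7.02, 7.18, 7.05, 6.88 and 7.04 for BAL17 at day 21, and 7.58, 7.69, 7.46, 7.52 and 7.57 for PBS. Every brain was above every line array, and all 5 BAL17 brains at day 21 lay below all PBS brains. The fall at day 21 was -0.53 ± 0.12 (adjusted p = 0.00144). The differences of -0.17 ± 0.12 in BAL17VII brains and -0.22 ± 0.12 in BAL17 brains at day 28 did not pass. Ackr3, an atypical receptor that takes up CXCL12, was lower than in PBS brains in BAL17 brains at day 28 (-0.52 ± 0.13) and at day 21 (-0.36 ± 0.13). Genes of most brain cell lists were lower in the same brains. Of 9 brain endothelium genes 5 were lower in BAL17 brains at day 21, with a mean per brain of 6.84 to 6.97 against 7.16 to 7.34 in PBS brains, and none was higher. Of 9 astrocyte genes 7 were lower, with a mean of 8.22 to 8.75 against 8.76 to 9.06. Of 9 microglia genes 7 were lower (6.48 to 6.86 against 7.01 to 7.34) and of 8 neuron genes 6 were lower (10.74 to 10.86 against 11.15 to 11.26), with none higher in any of these 4 lists. Of 10 genes of meninges and fibroblasts 3 were lower and 1 higher, where 18.8% of all genes were lower and 11.0% higher in that comparison. The part of these cells in the Cxcl12 result was not tested.

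Cxcl13, which draws B cells into follicles, was near the PBS level in cultured cells and higher in BAL17 brains at day 21. It was 5.32, 5.91 and 6.12 (lowest, median and highest) in BAL17VII cells and 5.57, 5.67 and 6.06 in BAL17 cells. Brain values were 5.48, 7.87, 7.09, 6.14 and 7.02 for BAL17VII, 6.62, 6.18, 6.67, 6.14 and 6.36 for BAL17 at day 28, 6.46, 7.21, 8.53, 7.66 and 6.52 for BAL17 at day 21, and 5.87, 5.80, 6.02, 5.94 and 5.62 for PBS. The spread within the day 21 groups exceeded that of any other group, and replicate 1 was the only implanted brain at or below the PBS values. Cxcl13 rose by 1.43 ± 0.35 in BAL17 brains at day 21 (adjusted p = 0.00317), a 2.69-fold difference. The difference of 0.54 ± 0.35 at day 28 did not pass (adjusted p = 0.296), although the brains did not overlap with PBS brains. It passed in the fit of those groups alone (adjusted p = 0.00386) and in none of the other 9 settings. In BAL17VII brains it was 0.87 ± 0.35 (adjusted p = 0.199), and 1.18 without replicate 1 (adjusted p = 0.0358). That was the only 1 of 10 leave-one-out fits in which the BAL17VII difference passed, and without replicate 2 the adjusted p was 0.536. The BAL17VII difference passed in none of 9 other settings. The monocyte and macrophage mean, over 11 genes, was 6.52 to 7.04 in BAL17VII brains, 6.51 to 7.18 in BAL17 brains at day 28, 6.44 to 6.97 at day 21 and 6.24 to 6.67 in PBS brains. Of these genes 2 were higher and none lower in BAL17VII brains (3 higher without replicate 1), 4 were higher and none lower in BAL17 brains at day 28, and 4 were higher and 2 lower at day 21. Of all genes 2.05%, 6.56% and 11.0% were higher in that order, and 0.647%, 11.5% and 18.8% lower. Cybb, the phagocyte oxidase subunit that is also expressed in both lines here, was 1.99 ± 0.37 higher in BAL17 brains at day 21. The part of macrophages in the Cxcl13 result was not tested.

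Ccl19, the ligand of CCR7, was measured by 5 probe sets, of which 1 pair held identical values and the least alike correlated at 0.932. Near-identical gene copies make its value uncertain. Its log2 intensity was 6.54, 6.83 and 7.03 (lowest, median and highest) in BAL17VII cells and 6.76, 6.96 and 7.10 in BAL17 cells. Brain values were 6.68, 7.22, 6.89, 7.25 and 7.15 for BAL17VII, 7.08, 7.29, 7.23, 7.67 and 7.62 for BAL17 at day 28, 7.39, 7.03, 7.18, 7.58 and 7.25 for BAL17 at day 21, and 7.03, 6.81, 7.33, 7.49 and 7.13 for PBS. No comparison passed, and the difference of BAL17 brains at day 21 from PBS brains was 0.13 (95% interval -0.16 to 0.42). All neighbouring groups in its order overlapped.

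Ccl5, a T cell and monocyte attractant, separated the cultured lines more than any other gene of the set. It was 10.24, 10.41 and 10.55 (lowest, median and highest) in BAL17VII cells and 7.65, 7.74 and 7.97 in BAL17 cells. Brain values were 6.70, 8.51, 8.34, 7.06 and 7.90 for BAL17VII, 8.56, 7.63, 7.90, 7.45 and 7.51 for BAL17 at day 28, 7.36, 7.71, 7.50, 7.62 and 7.43 for BAL17 at day 21, and 7.07, 7.26, 6.76, 7.35 and 7.10 for PBS. BAL17VII cells were above every other array, and BAL17 brains of both days were above all PBS brains. At day 21 the margin was narrow, with the lowest BAL17 brain at 7.36 and the highest PBS brain at 7.35. The differences from PBS were 0.60 ± 0.26 in BAL17VII brains (adjusted p = 0.245), 0.70 ± 0.26 in BAL17 brains at day 28 (adjusted p = 0.0617) and 0.42 ± 0.26 at day 21 (adjusted p = 0.229), and none passed. That SE is pooled over all brain groups, whose spread was unequal. The SD was 0.79 in BAL17VII brains, 0.45 in BAL17 brains at day 28, 0.14 at day 21 and 0.22 in PBS brains. The day 28 difference passed in 5 of 10 other settings (adjusted p down to 0.0116, in the fit of those groups alone) and the day 21 difference in 1 of 10 (0.0111, in the same kind of fit). Without BAL17VII replicate 1, the difference of BAL17VII brains was 0.85 and passed (adjusted p = 0.0358). That was the only 1 of 10 leave-one-out fits in which the BAL17VII difference passed, and without replicate 2 the adjusted p was 0.6. The BAL17VII difference passed in none of 9 other settings.

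Ccl2, a monocyte attractant, was higher in BAL17 brains than in PBS brains. It was 5.30, 5.80 and 5.92 (lowest, median and highest) in BAL17VII cells and 5.53, 5.64 and 6.29 in BAL17 cells. It was 5.77, 6.32, 5.88, 5.84 and 6.26 in BAL17VII brains, 6.28, 6.36, 6.42, 6.03 and 6.03 in BAL17 brains at day 28, 6.21, 6.14, 6.29, 6.54 and 6.27 at day 21, and 5.80, 5.79, 5.76, 6.08 and 5.82 in PBS brains. The difference was 0.37 ± 0.11 at day 28 (adjusted p = 0.0245) and 0.44 ± 0.11 at day 21 (adjusted p = 0.00532). The day 21 brains did not overlap with PBS brains, and the day 28 brains did. Cxcl16, which binds CXCR6, was 5.39, 5.63 and 5.73 in BAL17VII cells and 5.06, 5.46 and 5.76 in BAL17 cells. Its brain values were 5.39, 5.48, 5.33, 5.06 and 5.18 for BAL17VII, 5.47, 5.24, 5.47, 5.34 and 5.37 for BAL17 at day 28, 5.26, 5.24, 5.35, 5.33 and 5.61 for BAL17 at day 21, and 4.99, 4.86, 5.34, 5.11 and 5.10 for PBS. All implanted groups overlapped with PBS brains. Against PBS, Cxcl16 in BAL17 brains differed by 0.30 ± 0.10 at day 28 (adjusted p = 0.0333) and by 0.28 ± 0.10 at day 21 (adjusted p = 0.0305). Both genes sit below the array median throughout. At day 28 the Ccl2 call was lost in 5 of 10 fits that left out an array (adjusted p up to 0.076) and the Cxcl16 call in 7 of 10 (up to 0.107). The day 21 Cxcl16 call was lost in 3 of 10 (up to 0.102). These 3 calls were also lost under quantile normalization.

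**Figure D2:**
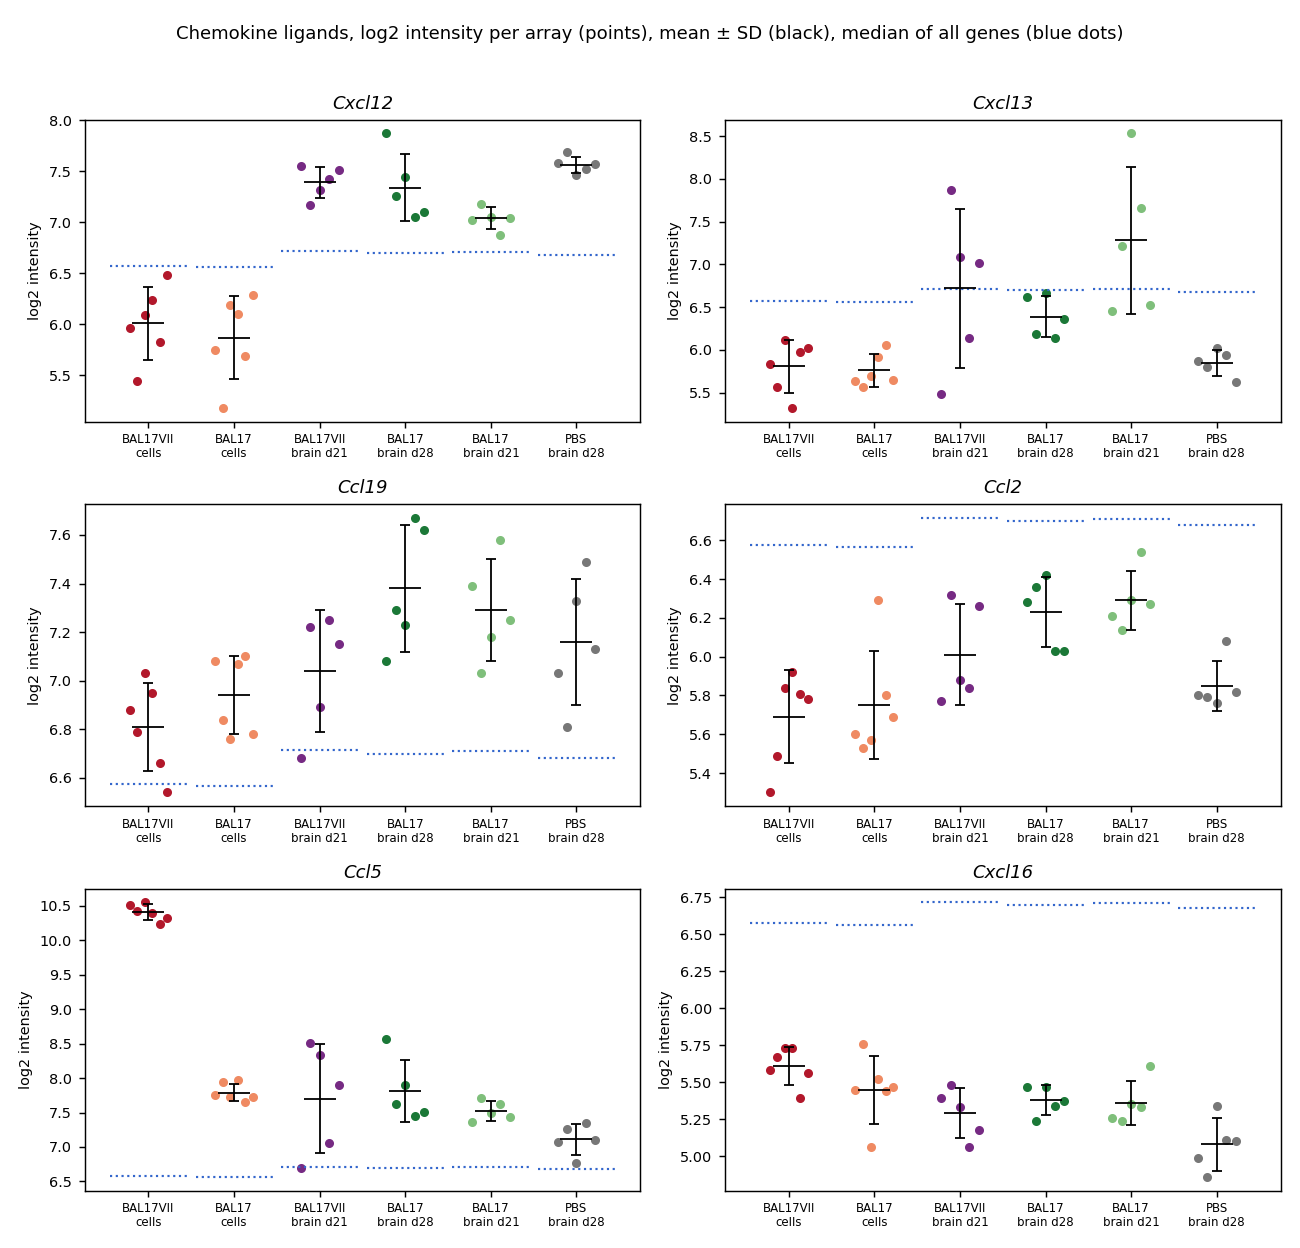
Log2 intensity of the ligand genes (vertical axis) in the 6 groups (horizontal axis), with arrays as points, mean ± SD in black and the median of all genes in blue dots. Ccl5 stands at 10.24 to 10.55 in BAL17VII cells, and Cxcl13 spreads from 6.46 to 8.53 in BAL17 brains at day 21.

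The comparisons with PBS brains asked which of these genes accompany an implanted lymphoma. In BAL17VII brains only Cxcr4 passed, against 2.05% of all genes higher and 0.647% lower. Without replicate 1 the number was 4, namely Cxcr4, Cxcl13, Ccr7 and Ccl5, against 2.77% of all genes higher and 0.667% lower in that fit. Cxcl13, Ccr7 and Ccl5 passed in no other leave-one-out fit of that comparison. In BAL17 brains at day 28, 5 of the 10 genes were higher and none lower, against 6.56% and 11.5% of all genes. The fit of those groups alone called 7, all higher. In BAL17 brains at day 21, 6 were higher and 1 lower, against 11.0% and 18.8%. The median log2 fold change of the 10 genes was 0.27, 0.46 and 0.43 in that order of groups, beside medians over all genes of -0.01, -0.02 and 0.00. These comparisons share their PBS arrays. The B cell list moved with them: 7 of its 11 genes were higher in BAL17VII brains, 10 in BAL17 brains at day 28 and 11 at day 21, and none was lower. Without BAL17VII replicate 1 the first count was 9. Cd79b, a B cell receptor subunit, was higher by 2.0 ± 0.30, 2.98 ± 0.30 and 2.84 ± 0.30 in that order. The part of tumour cell number in the receptor results was not tested.

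**Figure D3:**
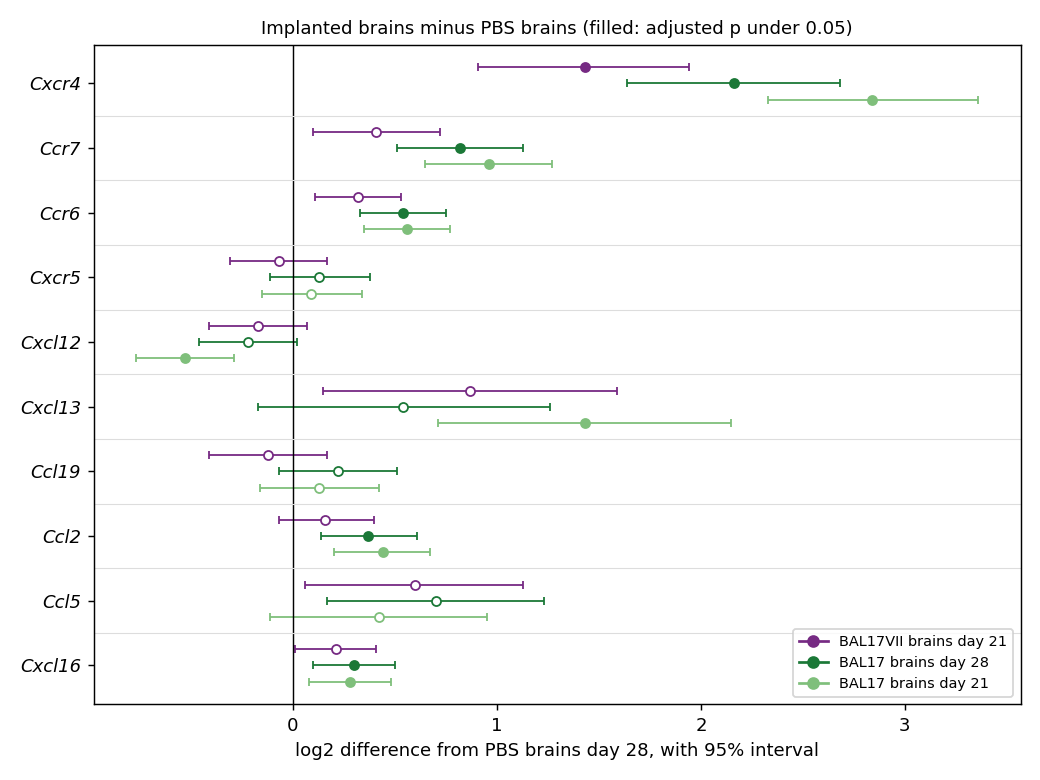
Log2 difference from PBS brains (horizontal axis) with its 95% interval for each gene (vertical axis) in the 3 implanted groups. Filled points have an adjusted p under 0.05, and Cxcr4 lies farthest right at 1.43, 2.16 and 2.84.

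The lines differed in culture in 3 of the 10 genes. Ccl5 was higher in BAL17VII cells by 2.62 ± 0.08 (adjusted p = 5.8e-12), or 6.13-fold, with all 6 BAL17VII arrays above all BAL17 arrays. The monocyte and macrophage mean also differed, at 6.56 to 6.68 in BAL17VII cells against 5.99 to 6.15 in BAL17 cells. Of its 11 genes 4 were higher, among them Adgre1 (1.29 ± 0.10), Cd68 (0.91 ± 0.09) and Cybb (2.95 ± 0.08), and none was lower. The median log2 difference over the 11 genes was only 0.10, beside -0.01 over all genes. The part of this list in the Ccl5 difference was not tested. Ccr7 was higher by 0.40 ± 0.10 (adjusted p = 0.0131) and Ccr6 lower by 0.33 on the log2 scale (-0.33 ± 0.11, adjusted p = 0.0467), with overlapping arrays in both. The Ccr6 call was lost in 9 of 12 fits that left out an array, with adjusted p up to 0.0939. Of all genes 8.48% were higher and 6.93% lower. Cxcr4 did not pass, at 0.11 with a 95% interval of -0.02 to 0.23.

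In brains at day 21 the contrast of the same lines passed for Cxcr4, Ccr7 and Cxcl12. Cxcr4 was lower in BAL17VII than in BAL17 brains (-1.42 ± 0.25, adjusted p = 0.000857) and Ccr7 was lower (-0.55 ± 0.15, adjusted p = 0.0165), while Cxcl12 was higher (0.36 ± 0.12, adjusted p = 0.0445). Of all genes 8.94% were higher and 4.55% lower. Without BAL17VII replicate 1 Cxcr4 alone passed (-1.05, adjusted p = 9.22e-05), against 4.77% of all genes higher and 2.66% lower, with Ccr7 at -0.43 (adjusted p = 0.0629) and Cxcl12 at 0.32 (adjusted p = 0.123). The Cxcl12 call was also lost in 7 other leave-one-out fits, with quantile normalization and in the fit of all arrays. Ccl5 differed by 0.18 ± 0.26 (95% interval -0.35 to 0.71). B cell genes were lower in 4 of 11 cases and higher in none, and astrocyte genes higher in 6 of 9 and lower in none. Microglia genes were higher in 6 of 9 cases, neuron genes in 4 of 8 and brain endothelium genes in 2 of 9, with none lower. Without BAL17VII replicate 1, 3 B cell genes were lower and 1 higher. In that fit 5 astrocyte, 5 microglia, 3 neuron and 2 brain endothelium genes were higher. Their part in these differences was not tested.

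The difference between these contrasts was tested directly, as the line difference in brains minus the line difference in culture. It was -1.52 ± 0.29 for Cxcr4 (adjusted p = 0.000227), -0.95 ± 0.19 for Ccr7 (adjusted p = 0.000498) and -2.44 ± 0.30 for Ccl5 (adjusted p = 2.12e-07). The remaining 7 genes did not pass, and 15.6% of all genes did. Without BAL17VII brain replicate 1 the values were -1.16 for Cxcr4, -0.83 for Ccr7 and -2.19 for Ccl5, all still called, and 12.4% of all genes passed. Cultured cells are tumour cells alone and brains are mixtures, so this quantity also holds the difference in makeup, which cannot be told apart from a change within the tumour cells. Lines and brains may also differ in processing batch, which cancels in this quantity only where it is additive.

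**Figure D4:**
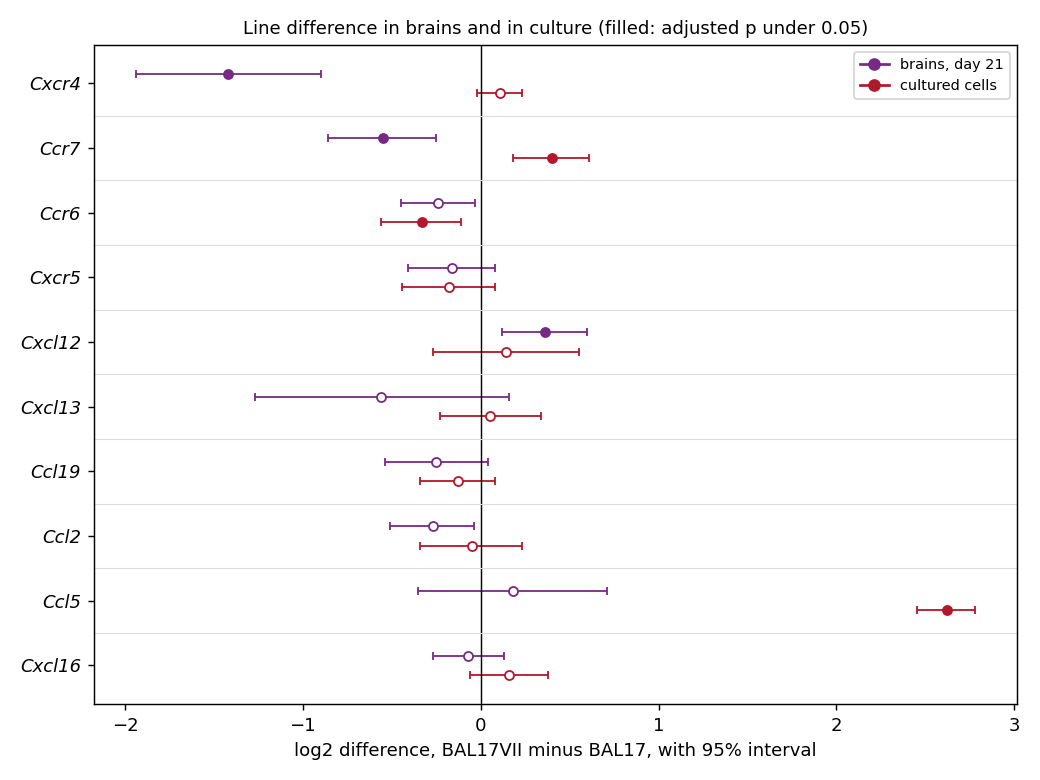
Log2 difference of BAL17VII minus BAL17 (horizontal axis) with its 95% interval for each gene (vertical axis), in brains at day 21 and in cultured cells. Ccl5 stands at 0.18 in brains and 2.62 in culture, and Cxcr4 at -1.42 in brains and 0.11 in culture.

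Between BAL17 brains at day 28 and at day 21 limma called none of the 10 genes, against 0.391% of all genes higher and 0.221% lower. At an unadjusted p under 0.05 there were 3, namely Cxcr4 (-0.69 ± 0.25, adjusted p = 0.274), Cxcl13 (-0.88 ± 0.35, adjusted p = 0.337) and Cxcl12 (0.31 ± 0.12, adjusted p = 0.304). Cxcr4 was lower in all 5 day 28 brains than in all 5 day 21 brains. It passed in the fit of those groups alone (adjusted p = 0.00579), with array weights (adjusted p = 0.0407) and in the fit without the low BAL17VII brain (adjusted p = 0.0148).

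Other chemokine genes were described from lists chosen by name, also with earlier results of these data known. Of 30 other ligands, 1 was higher in BAL17VII brains, 5 were higher and 2 lower in BAL17 brains at day 28, and 10 were higher and 2 lower at day 21, each against PBS brains. Of all genes 2.05%, 6.56% and 11.0% were higher in that order, and 0.647%, 11.5% and 18.8% lower. Without BAL17VII replicate 1 the first count was 4, where 2.77% of all genes were higher. The monocyte attractants Ccl9 (0.71 ± 0.12 at day 28, 0.66 ± 0.12 at day 21) and Ccl6 (0.76 ± 0.15 and 0.66 ± 0.15) rose at both days. Ccl12, a mouse relative of Ccl2, was higher in BAL17VII brains (1.2 ± 0.31, adjusted p = 0.0398, and 1.48 ± 0.29 without replicate 1), and the neuronal chemokine Cx3cl1 was lower in BAL17 brains at day 21 (-0.51 ± 0.08). Of 18 other receptors, 3 were higher and 3 lower in BAL17 brains at day 21, among them Ccr10 (0.43 ± 0.10) and the scavenging receptor Ackr1 (-0.47 ± 0.12). These are 3 of 18 each way, where 11.0% of all genes were higher and 18.8% lower. In BAL17 brains at day 28, none of the 18 was higher and 1 was lower. In BAL17VII brains none passed, with or without replicate 1. Ccr2, the receptor of CCL2, was higher in BAL17VII than in BAL17 cells (0.80 ± 0.09) but passed in no comparison with PBS brains. Cxcr6, the receptor of CXCL16 and looked up as its partner, passed in none either.

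Genes that act with these receptors in cell migration were described in the same way. Of 18 such genes, 3 were higher in BAL17VII brains, 6 in BAL17 brains at day 28 and 8 in BAL17 brains at day 21 than in PBS brains, with 1 lower at day 21. Of all genes 2.05%, 6.56% and 11.0% were higher in that order, and 18.8% were lower at day 21. Without BAL17VII replicate 1 the first count was 4. Dock2, which drives Rac activation behind chemokine receptors, was higher by 1.5 ± 0.22, 2.22 ± 0.22 and 2.42 ± 0.22 in that order, and the integrin subunit gene Itga4 by 0.61 ± 0.16, 0.90 ± 0.16 and 0.97 ± 0.16. Rgs13, a brake on chemokine receptor signalling in germinal centre B cells, was lower in BAL17VII than in BAL17 brains at day 21 (-3.18 ± 0.35). In culture it was also lower in BAL17VII cells (-2.37 ± 0.07). Dpp4, a protease that trims chemokines, was higher in BAL17VII cells (3.52 ± 0.10) and in BAL17VII brains (0.53 ± 0.12). Of 13 genes of the lymphotoxin axis, which induces homeostatic chemokines in stroma, 1 was higher in BAL17VII brains, 3 in BAL17 brains at day 28 and 4 at day 21. These counts stand beside the same shares of all genes. Ltb, which encodes lymphotoxin beta, rose in BAL17 brains by 0.85 ± 0.10 at day 28 and 0.82 ± 0.10 at day 21, and was lower in BAL17VII than in BAL17 brains (-0.76 ± 0.10).

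Over the 20 brain arrays, the gene whose log2 intensity correlated best with each member was found among 9964 genes above the median. Cxcr4 was most like Ctse (r = 0.986), Ccr7 like Bst2 (0.935), Ccr6 like Slc7a1 (0.88) and Cxcr5 like Lat2 (0.692). Among ligands, Cxcl12 was most like Zhx1 (0.924), Cxcl13 like Cybb (0.846), Ccl19 like Luc7l2 (0.882), Ccl5 like Vpreb3 (0.825), Ccl2 like Myo1c (0.83) and Cxcl16 like Aurka (0.867). The brains of 1 group share their treatment, so these values are descriptions of the groups as much as of single brains.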

How the data were processed

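RNA of 12 arrays of cultured lines and 20 of brains was measured on Affymetrix mouse whole-transcript arrays. Per the submitters' processing notes, the deposited intensity values were made by the authors with RMA in Affymetrix Expression Console, versions not given. They run from 2.72 to 17825, so log2 was taken of the deposited intensity values here. Whether lines and brains were normalized together is not given in the sources used here. They may also differ in processing batch, so levels across lines and brains were described without a test. All samples, cultured lines among them, carry an extraction label of frozen sections with Trizol. Of 35556 probe sets, 21789 carried 1 gene symbol, 1621 several and 12146 none. The highest-mean probe set stood for each of 19938 genes, and 21698 probe sets matched the GRCm38.p6 gene table, used for names. Median array intensity was 81.7 to 93.0, no pair of arrays was identical, and the number of arrays limits the precision. Groups were compared with limma 3.58.1 in R 4.3.3 (group means, empirical Bayes, two-sided, Benjamini-Hochberg over all 19938 genes, no filter on low values, called at an adjusted p under 0.05), with 12 arrays for the lines, 20 for the brains and 32 for the difference of differences. SE and 95% intervals are limma's, and SD is over arrays. The brain fit took 1 spread per gene over all 20 brains, so an SE is not that of the compared groups alone. The members and lists were chosen with earlier results of these data known. Named genes are the 10 members, the 3 genes of smallest adjusted p in each of 13 lists and comparison, and the closest correlate of each member; partners are marked as such. Promoter letters come from RefSeq. Alternatives were a median filter, quantile and median normalization, trended moderation, array weights, the mean of probe sets, the replicate block, other sets of arrays and leave-one-out. Tests were tried on simulated data.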

Additional observations from a re-analysis of the deposited data

Results flagged for a closer look

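In 5 of 60 groups of a gene, 1 array stood apart from the others by Dixon's test at the 95% level, which chance gives in about 1 in 20 groups. Cxcr4 was low in BAL17VII brain replicate 1 at day 21, at 6.92 where the other brains of that group held 8.52 to 9.10. Cxcr5 was high in BAL17 brain replicate 3 at day 28 (4.70, with 4.34 the nearest). Ccl2 was high in BAL17 cells replicate 4 (6.29, nearest 5.80) and in PBS brain replicate 4 (6.08, nearest 5.82). Cxcl16 was high in BAL17 brain replicate 5 at day 21 (5.61, nearest 5.35). The BAL17VII minus BAL17 difference in brains differed from that in culture for Cxcr4 (-1.52), Ccr7 (-0.95) and Ccl5 (-2.44) by limma's test of the difference, and those 3 calls held in all 22 leave-one-out fits and in the 6 other settings run. These fits also pooled lines and brains, so they address neither the difference in makeup nor a possible difference in processing batch.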

How the results depend on the processing

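Of 22 called values of single genes, 414 alternatives kept the call and 40 lost it. Of 48 uncalled values, 939 stayed uncalled, 15 became called and 24 changed sign. Among counts under settings other than leave-one-out, this paragraph gives those that moved by more than 1.5-fold from the reported ones. Smaller shifts are left out, such as 6 members for BAL17 brains at day 21 against PBS with quantile normalization (7 as reported). The number of members called under other settings was 4 for BAL17 brains at day 21 against PBS with the median filter, 3 for BAL17 brains at day 28 against PBS with the median filter and with quantile normalization, and 1 for day 28 against day 21 with array weights, with the arrays of the 2 groups only and in the fit without the low BAL17VII brain, an alternative chosen after the data were seen, as were the list counts without that brain. The median filter kept 6 members in the brain fits, 5 in the fit of the lines and 7 in the difference of differences. In the brain fits it removed Ccr6, Ccl2, Cxcl16 and Cxcr5, so these were not tested there. Genes called for day 28 against day 21, 122 as reported, were 185 with the median filter, 231 with quantile normalization, 468 with array weights and 312 in the fit of those arrays only. In such fits, genes called were 197 for BAL17VII brains against PBS (538 as reported) and 1460 for BAL17VII against BAL17 brains (2691). The cause was not tested.

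Leaving out single arrays, genes called ranged from 229 to 1117 for BAL17VII brains against PBS, from 1483 to 3767 for BAL17VII against BAL17 brains and from 6 to 174 for day 28 against day 21. The lowest counts came without BAL17VII replicate 2, BAL17VII replicate 1 and BAL17 day 28 replicate 1, in that order. Members called ranged from 1 to 4 for BAL17VII brains against PBS, from 3 to 5 for BAL17 brains at day 28 against PBS and from 1 to 4 for BAL17VII against BAL17 brains. Uncalled values that changed sign ranged, in the cultured lines, from -0.10 to 0.05 for Ccl2 and from -0.01 to 0.15 for Cxcl13, for Cxcr5 from -0.01 to 0.21 in BAL17 brains at day 21 against PBS, for Ccl5 from -0.02 to 0.43 in BAL17VII against BAL17 brains, from -0.06 to 0.05 for Ccr6, -0.01 to 0.08 for Cxcl16 and -0.08 to 0.14 for Cxcr5 in day 28 against day 21, and from -0.10 to 0.11 for Cxcr5 in the difference of differences. With quantile normalization Cxcl16 in BAL17VII against BAL17 brains and Ccr6 in day 28 against day 21 were 0.00, and with array weights Cxcl16 in day 28 against day 21 was -0.01.

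With the replicate block, genes called were 2898 in the lines, 6082 for BAL17 brains at day 21 against PBS, 658 for BAL17VII brains against PBS, 3775 for BAL17 brains at day 28 against PBS, 2920 for BAL17VII against BAL17 brains and 137 for day 28 against day 21, and the numbers of members called did not change. Of 31 same-numbered pairs, 11 correlated above 0.1 (range -0.319 to 0.483), and 10 matched their own number best. Brain replicate 4 correlated at 0.142 to 0.375 in all 5 brain comparisons, but no comparison had every pair above 0.1 and the labels name no shared litter, batch or day, so the numbers were not taken as pairs.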
